A study of Mus musculus with 12 samples.

Results

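Kidneys that formed cysts were compared with kidneys that did not, in mice that all lacked the miR-17 motif of Pkd2. This set comprised 6 of the 12 mice of the series. They were the 3 noncystic mice labelled Pkd1 RC/+ with Pkd2 Δ17/Δ17 (mice 22, 23 and 24) and the 3 cystic mice labelled Pkd1 RC/- with Pkd2 Δ17/Δ17 (mice 28, 29 and 30), and every gene of the count table was considered. All were 18 days old, on a background labelled C57BL/6 (C57BL/6 J in the study's methods), and RNA was taken from the whole kidney. RC is a hypomorphic allele of Pkd1, and Δ17 is an allele of Pkd2 from which CRISPR/Cas9 editing removed the miR-17 binding motif of the 3′-UTR. Both groups were therefore homozygous for Δ17 and carried 1 RC allele. In the study's methods both groups also carried a floxed second Pkd1 allele, and the cystic mice carried Ksp-Cre in addition, so the loss of the second Pkd1 allele and the presence of Cre cannot be told apart. The Ksp promoter is that of the Cdh16 gene and drives Cre in tubule epithelium. The other 6 mice carried unedited Pkd2 (Pkd2 +/+): noncystic mice 19, 20 and 21 and cystic mice 25, 26 and 27. Here they contribute to the estimate of the spread and to a parallel contrast that shares no mice with the first.

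Autosomal dominant polycystic kidney disease arises when the dose of PKD1 or PKD2 falls. These genes encode polycystin-1, a large membrane receptor, and polycystin-2, a cation channel, which act together in the primary cilium and elsewhere in the tubule cell. Tubules with too little polycystin lose their normal diameter, proliferate, change their metabolism and are surrounded by inflammation and scar tissue. The microRNAs of the miR-17 family bind messenger RNAs through the bases next to their 5′ end, called the seed, and lower the stability or translation of their targets.

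The family sequences and the site they match are shown because both groups lack that site on both alleles. The mature sequences (RefSeq, mouse build GRCm38.p6) are given 5′ to 3′ with bases 2 to 8, the seed, in capitals. All 6 share the same seed.
miR-17-5p: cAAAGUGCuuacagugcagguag
miR-20a-5p: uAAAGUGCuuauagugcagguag
miR-20b-5p: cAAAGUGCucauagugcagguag
miR-93-5p: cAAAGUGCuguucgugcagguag
miR-106a-5p: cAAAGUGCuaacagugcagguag
miR-106b-5p: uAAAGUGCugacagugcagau
The reference 3′-UTR of Pkd2 holds 1 match to this seed. The match covers the reverse complement of the seed followed by an A. It lies in the last exon, exon 15, on the forward strand at chr5:104503821-104503828 (GRCm38), and begins 133 nucleotides after the stop codon. The 30 bases around it, chr5:104503810-104503839, are given with the match in capitals.
Pkd2 reference: tataattttctGCACTTTAatttattttac
The letters are those of the reference genome and so of the unedited allele. The exact ends of the Δ17 deletion were not analysed here.

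Reads had been counted per gene by the authors, and the 6 libraries held 18852652 to 19755910 counted reads. Levels are given as CPM, the counts of a gene relative to the total counts of its library after scaling by TMM factors, always in the order of mice 22, 23 and 24 for noncystic and 28, 29 and 30 for cystic kidneys. Differences are log2 fold changes, cystic over noncystic, with a standard error (SE). The adjusted p is that of edgeR's quasi-likelihood test after Benjamini-Hochberg adjustment over all 24642 genes tested, and a gene is called when it is under 0.05. The words rose and fell are used of called genes. The labels give no sex. Xist, transcribed from the inactive X chromosome, was high in mice 22, 23 and 28 (431 to 675 CPM) and far lower in mice 24, 29 and 30 (5.89 to 7.74 CPM). The groups therefore differed in their likely number of females and males. None of 5 sex-linked genes was called (log2 fold changes -0.92 to 0.93). Each group held mice of high and of low Xist, so these genes varied within both groups. The part of sex in other results was not tested. Defining markers of the nephron segments, podocytes, endothelium and macrophages were present in every library, the lowest being Adgre1 at 5.01 CPM and Slc4a1 at 13.3 CPM, and the other 14 of 16 markers at 14.3 CPM or more.

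Genes of neighbouring tissues set some libraries apart. Among 10 genes of the adrenal cortex, the summed level was 87.7 to 91.7 CPM in noncystic kidneys, 65.2 and 55.2 CPM in cystic mice 28 and 29, and 565 CPM in cystic mouse 30. Cyp11b1, an enzyme of corticosteroid synthesis, was at 0.109, 0 and 0 CPM in noncystic kidneys, at 0.0961 and 0.244 CPM in mice 28 and 29 and at 45.2 CPM in mouse 30. Of these 10 genes, 8 were called higher and 1 lower, where 23% of all genes tested were called. Of the list, 1 rose and none fell without mouse 22, none rose and 1 fell without mouse 23 or 30, and none rose and none fell without mouse 24. With DESeq2 1 was called higher and 1 lower. Fat genes ran the other way: 11 of them summed to 898 to 1220 CPM in noncystic kidneys, against 632, 246 and 427 CPM in mice 28, 29 and 30, with 7 called lower and 1 higher. Adipoq, a hormone of fat cells, was at 27.7, 29.3 and 24.1 CPM against 16.2, 0.489 and 6.73 CPM. Of the list, 1 rose and 3 fell without mouse 23 or 30. Genes of red blood cells summed to 483 to 1120 CPM in noncystic and 222 to 302 CPM in cystic kidneys, and 6 of 10 fell, among them Hbb-bs (log2 fold change -1.51) and Alas2 (-1.85). The part of attached tissue or of residual blood in other results was not tested.

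**Figure D1:**
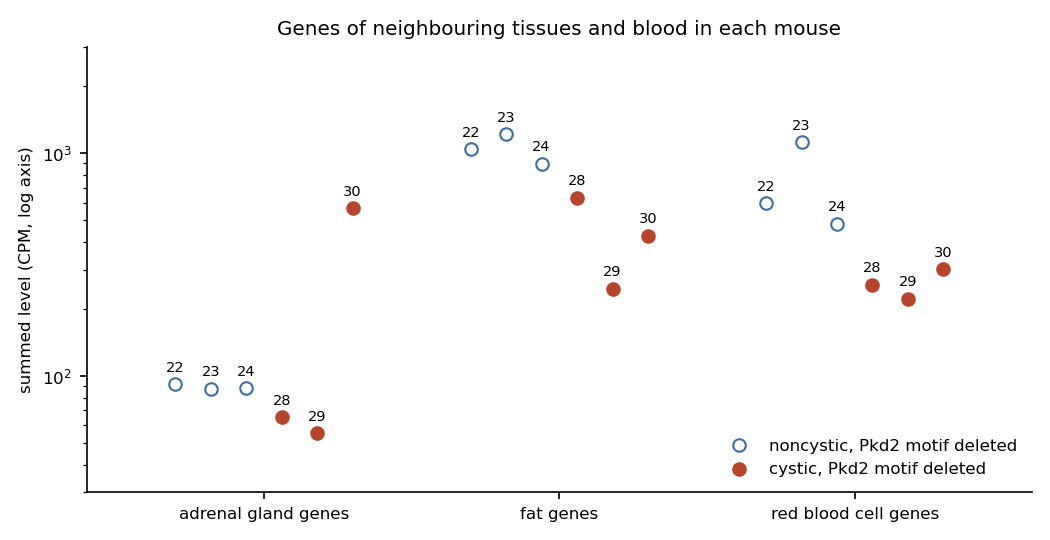
Summed level (CPM, log axis) of the genes of the adrenal gland, fat and red blood cell lists in each of the 6 mice, with noncystic mice 22 to 24 as open and cystic mice 28 to 30 as filled points. Mouse 30 stands alone for adrenal genes (565 CPM), mouse 29 has the lowest level of fat genes (246 CPM), and red blood cell genes are lower in all 3 cystic mice.

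Of the 24642 genes tested, 5679 (23%) were called: 3164 (12.8%) rose in cystic kidneys and 2515 (10.2%) fell. A change of at least 2-fold was found for 1515 genes (6.15%), of which 910 rose (3.69%) and 605 fell (2.46%), and a change of at least 4-fold for 198 genes that rose (0.804%) and 114 that fell (0.463%). At 9335 genes (37.9%) the ranges of both groups were apart, with the cystic mice above at 4966 genes (20.2%). In the 10 most abundant genes lay 8.91 to 9.76% of the reads of noncystic kidneys and 5.43 to 5.93% of those of cystic kidneys. The split between directions depended on how this difference in composition was handled: with library totals in place of TMM factors 5334 genes rose and 1657 fell, and the median of all genes moved from -0.003 to 0.148 on the log2 scale. List counts given below for library totals include this shift of all genes. With limma-trend on library totals, the method of the study, 5436 rose and 1698 fell. With Xist as a covariate 5355 genes were called.

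Pkd2 itself was measured at 277, 286 and 270.5 CPM in noncystic and 337, 336 and 307 CPM in cystic kidneys. The cystic values all lay above the noncystic ones, with a log2 fold change of 0.23 (SE 0.08, edgeR adjusted p = 0.0384). Pkd2 was not called without mouse 22, 23, 24, 28 or 29 or with DESeq2 size factors (log2 fold change 0.21 to 0.23, edgeR adjusted p = 0.068 to 0.13). With library totals the value was 0.38. Pkd1, whose exons overlap those of an antisense neighbour so that reads could be shared, was at 63.04, 77.5 and 68.8 CPM in noncystic and 81.6, 67.4 and 70.9 CPM in cystic kidneys, and the groups overlapped (log2 fold change 0.07, SE 0.11, edgeR adjusted p = 0.708). Counts per gene do not show the state of the floxed exons. Of 14 tested genes linked to polycystic disease, 3 rose (Pkd2, Pkhd1 and Dzip1l) and none fell, and with library totals 7 rose. The share called was 21.4%, against 23% of all genes and 31.6% of protein-coding genes. Pkhd1, which encodes the ciliary protein fibrocystin, rose by 0.62 (SE 0.11) from 152 to 166 CPM to 226 to 261 CPM. Among the genes hosting the miR-17 family, Mir17hg, the primary transcript of miR-17 and miR-20a, was not called (0.18, SE 0.20, edgeR adjusted p = 0.602). Mcm7, a replication gene whose introns hold miR-93 and miR-106b, rose by 0.88 (SE 0.11). Mir17hg was chosen after its values were seen, and neither host transcript measures the mature microRNA. Cdh16, whose promoter drives the Cre, was at 1469, 1427 and 1497 CPM in noncystic and 1417, 1615 and 1449.6 CPM in cystic kidneys, and the groups overlapped.

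Of 10 genes that the study names, the polycystins and regulators of cyst growth among them, 3 rose and 1 fell. Of the list, 2 rose and none fell without mouse 22, 23, 24 or 29. Myc, a transcription factor of growth, stood at 12.8, 14.2 and 16.8 CPM in noncystic and 26.4, 24.7 and 28.8 CPM in cystic kidneys and rose by 0.87 (SE 0.13, edgeR adjusted p = 1.03e-04), with no overlap between the groups. Yap1 (0.13, SE 0.08), Creb1 (0.09, SE 0.08) and Mettl3 (0.06, SE 0.12), the m6A methyltransferase, were not called. Yap1 was called with library totals (log2 fold change 0.28, edgeR adjusted p = 0.00693). Creb1 was called with library totals (log2 fold change 0.25, edgeR adjusted p = 0.0365). Ppara, a nuclear receptor that drives fatty acid oxidation, was at 28.6, 32.6 and 31.1 CPM in noncystic and 24.3, 18.4 and 16.98 CPM in cystic kidneys and fell (-0.63, SE 0.21, edgeR adjusted p = 0.0419). Ppara was not called without mouse 22, 23, 24, 29 or 30 or with Xist as a covariate or with library totals (log2 fold change -0.69 to -0.48, edgeR adjusted p = 0.0535 to 0.155). Mrc1, a macrophage mannose receptor, rose from 13.7, 12.3 and 8.91 to 29.6, 26.9 and 31.6 CPM (1.33, SE 0.14, edgeR adjusted p = 6.05e-06).

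The largest rises were found in genes that were scarce in noncystic kidneys. Lgi2, a secreted leucine-rich protein, was at 4.20, 2.95 and 3.80 CPM in noncystic and 38.3, 44.8 and 54.8 CPM in cystic kidneys, a log2 fold change of 3.65 (SE 0.21, edgeR adjusted p = 2.42e-08). Lif, a cytokine of the interleukin-6 family, was at 0.817, 0.818 and 1.10 CPM in noncystic and 5.77, 9.39 and 17.9 CPM in cystic kidneys (3.59, SE 0.36). S100a14, an epithelial calcium-binding protein, was at 7.14, 7.64 and 6.22 CPM in noncystic and 60.7, 81.6 and 84.99 CPM in cystic kidneys (3.44, SE 0.16), and mouse 28 was lowest of the cystic mice for all 3 genes. Egr2 (3.49), Mybpc2 (3.45), Ctnnd2 (3.35), Lgals7 (3.30) and Cfap44 (3.04) completed the 8 largest rises among protein-coding genes of average log2CPM 1 or more without overlap. Without mouse 30 the value for Egr2 was 2.78, and without mouse 22 that for Lgals7 was 3.98. The rises with the smallest p were those of S100a14, Mcoln3, Hmcn1, Mex3a and Dcdc2a. Mcoln3, a lysosomal channel, went from 30.9, 27.2 and 23.2 to 158, 189 and 205 CPM (2.76, SE 0.13, edgeR adjusted p = 5.31e-09). Hmcn1, an extracellular matrix protein, went from 14.1, 16.1 and 12.9 to 67.5, 68.9 and 62.7 CPM (2.21, SE 0.11). Dcdc2a, which encodes a doublecortin-domain protein of the cilium, rose by 2.40 (SE 0.13).

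Gldc, which cleaves glycine in mitochondria, was at 64.7, 50.5 and 45.5 CPM in noncystic and 7.93, 5.38 and 7.79 CPM in cystic kidneys (-2.93, SE 0.21, edgeR adjusted p = 1.74e-07). Egf, the growth factor precursor made by the distal nephron, was at 1855, 2539 and 2151 CPM in noncystic and 432, 516 and 418 CPM in cystic kidneys (-2.26, SE 0.16, edgeR adjusted p = 1.53e-07), so that every cystic kidney held less than every noncystic one by more than 3-fold. Angptl4, an inhibitor of lipoprotein lipase and a target of PPAR receptors, was at 149.7, 209 and 149 CPM in noncystic and 42.9, 25.8 and 32.9 CPM in cystic kidneys (-2.32, SE 0.17). Zbtb16 (-2.69), the neuropeptide receptor gene Npy1r (-2.40), the histidine-degrading enzyme gene Uroc1 (-2.36), Crabp1 (-2.35) and Ucp3 (-2.25) were the others of the 8 largest falls. The values were -3.44 for Zbtb16 without mouse 30 and -3.15 for Ucp3 without mouse 28. By p the leading falls were those of Slc16a4, Gsta2, the mitochondrial ribosomal RNA genes mt-Rnr1 and mt-Rnr2, and Klk1. Klk1, the tissue kallikrein of the distal tubule, was at 2490.5, 2362 and 2580.5 CPM in noncystic and 521, 597 and 478 CPM in cystic kidneys (-2.22, SE 0.14). Gsta2, a glutathione transferase, fell by 1.77 on the log2 scale (SE 0.11), and Slc16a4, a monocarboxylate transporter, fell by 1.19 (SE 0.07).

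**Figure D2:**
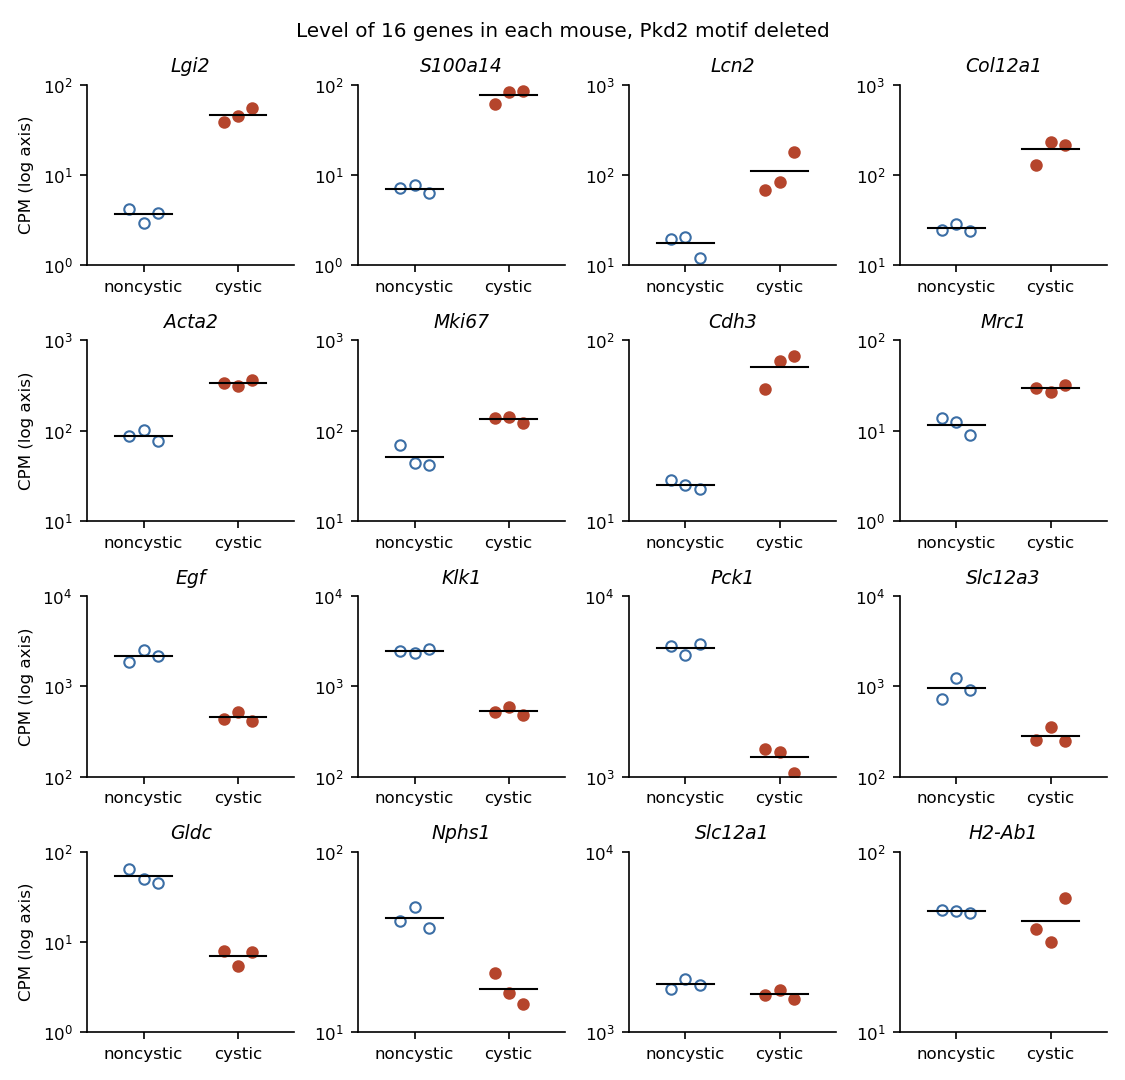
Level of 16 genes (CPM, log axis) in each of the 6 mice, with noncystic mice as open and cystic mice as filled points and a bar at each group's mean. Lgi2, S100a14, Lcn2, Col12a1, Acta2, Mki67, Cdh3 and Mrc1 are higher in every cystic mouse, Egf, Klk1, Pck1, Slc12a3, Gldc and Nphs1 are lower in every cystic mouse, and the groups overlap for H2-Ab1. The remaining gene, Slc12a1, was not called.

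Genes of most nephron segments fell, to different degrees. In bulk kidney, fewer cells of a type and less RNA per cell cannot be told apart. Of 30 proximal tubule transporter genes, 27 fell and none rose, with a median log2 fold change of -0.97 (all genes tested, -0.003). Slc34a3, a phosphate carrier, was at 57.9, 61.7 and 65.8 CPM in noncystic and 22.9, 27.9 and 19.9 CPM in cystic kidneys (-1.39, SE 0.14, edgeR adjusted p = 2.39e-06). Slc22a7, an organic anion transporter, showed the largest fall of the list (-1.81, SE 0.35), with 5.50, 18.5 and 16.7 CPM in noncystic and 2.93, 5.23 and 3.42 CPM in cystic kidneys. Slc5a12, a lactate carrier, fell by 1.42 and Slc13a3, a dicarboxylate carrier, by 1.30 on the log2 scale. Among the 3 members that were not called was Slc7a8, an amino acid exchanger (-0.32, SE 0.15). Of 10 genes of gluconeogenesis and fructose handling, a proximal tubule task, 9 fell (median -1.16). Pck1, which commits carbon to glucose synthesis, was at 5259, 4706 and 5408 CPM in noncystic and 1415, 1374 and 1051 CPM in cystic kidneys (-2.0, SE 0.21, edgeR adjusted p = 5.81e-06), and G6pc, which releases free glucose, fell by 1.58 on the log2 scale.

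Genes of the thick ascending limb were split. Of its 15 genes, 8 fell and 2 rose (median -0.49). Egf fell as above, and Tmem207, a small membrane protein of this segment, was at 32.4, 27.1 and 30.8 CPM in noncystic and 12.3, 15.6 and 12.5 CPM in cystic kidneys (-1.16, SE 0.13, edgeR adjusted p = 8.36e-06). Slc12a1, the furosemide-sensitive sodium-potassium-chloride carrier that defines the segment, was at 1733, 1979 and 1820.1 CPM in noncystic and 1607, 1726 and 1538 CPM in cystic kidneys and was not called (-0.18, SE 0.10, edgeR adjusted p = 0.238). Umod, the most specific product of these cells, was at 916, 1175 and 1023 CPM in noncystic and 1250.3, 1190.4 and 1370.3 CPM in cystic kidneys, higher in every cystic mouse, and was not called either (0.29, SE 0.16). Cldn19, a tight junction protein needed for magnesium reabsorption, rose from 116, 85.9 and 107 to 158, 189.8 and 189 CPM (0.80, SE 0.10). In the distal convoluted tubule, 13 of 16 genes fell and 1, Stk39, rose (median -1.0). Slc12a3, the thiazide-sensitive carrier, was at 726, 1247 and 921 CPM in noncystic and 254, 352 and 247 CPM in cystic kidneys (-1.76, SE 0.27, edgeR adjusted p = 1.61e-04). Pvalb (-1.93) and Calb1 (-1.27), both calcium-binding proteins, fell with it.

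Genes of the collecting duct moved in different directions by cell type. Of 16 principal cell genes, 6 rose and 2 fell (median 0.40). Hsd11b2, which protects the mineralocorticoid receptor from glucocorticoids, was at 268, 231 and 248 CPM in noncystic and 557, 708 and 665 CPM in cystic kidneys (1.37, SE 0.14, edgeR adjusted p = 4.03e-06). Scnn1g, a subunit of the epithelial sodium channel, rose by 1.06 (SE 0.14) and the transcription factor gene Gata3 by 1.06 (SE 0.15). Aqp2, the vasopressin-regulated water channel, was at 604, 369 and 686 CPM in noncystic and 511, 857 and 555 CPM in cystic kidneys, with overlap between the groups, and was not called. Of 15 intercalated cell genes, 9 fell and none rose (median -0.59; with library totals 9 fell and 2 rose), led by the chloride-bicarbonate exchanger Slc4a1 (-1.76, SE 0.24), which is also a red blood cell protein. Slc26a4, or pendrin, fell by 1.02 on the log2 scale. Of 17 podocyte genes, 9 fell and 3 rose (median -0.42), but with library totals 6 fell and 5 rose, and with Xist as a covariate 7 fell and 4 rose. The slit diaphragm gene Nphs1 was at 41.6, 49.3 and 37.96 CPM in noncystic and 21.4, 16.4 and 14.3 CPM in cystic kidneys and fell (-1.31, SE 0.20). Npnt and Kirrel, which are made outside the podocyte too, were among those that rose. The summed level of the list was higher in every cystic kidney, at 2440 to 2740 CPM against 2030 to 2210 CPM, and Npnt alone was at 1082, 949 and 970.5 CPM in noncystic and 1667, 1743 and 1592 CPM in cystic kidneys. Of 26 transcription factors of nephron development, 8 rose and 7 fell, or 11 and 5 with library totals. Sox4 (1.43, SE 0.14) and Sox11 (1.5, SE 0.22), which are active in the embryonic kidney, rose, and Hnf4a, a factor of the mature proximal tubule, fell by 0.78 on the log2 scale.

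**Figure D3:**
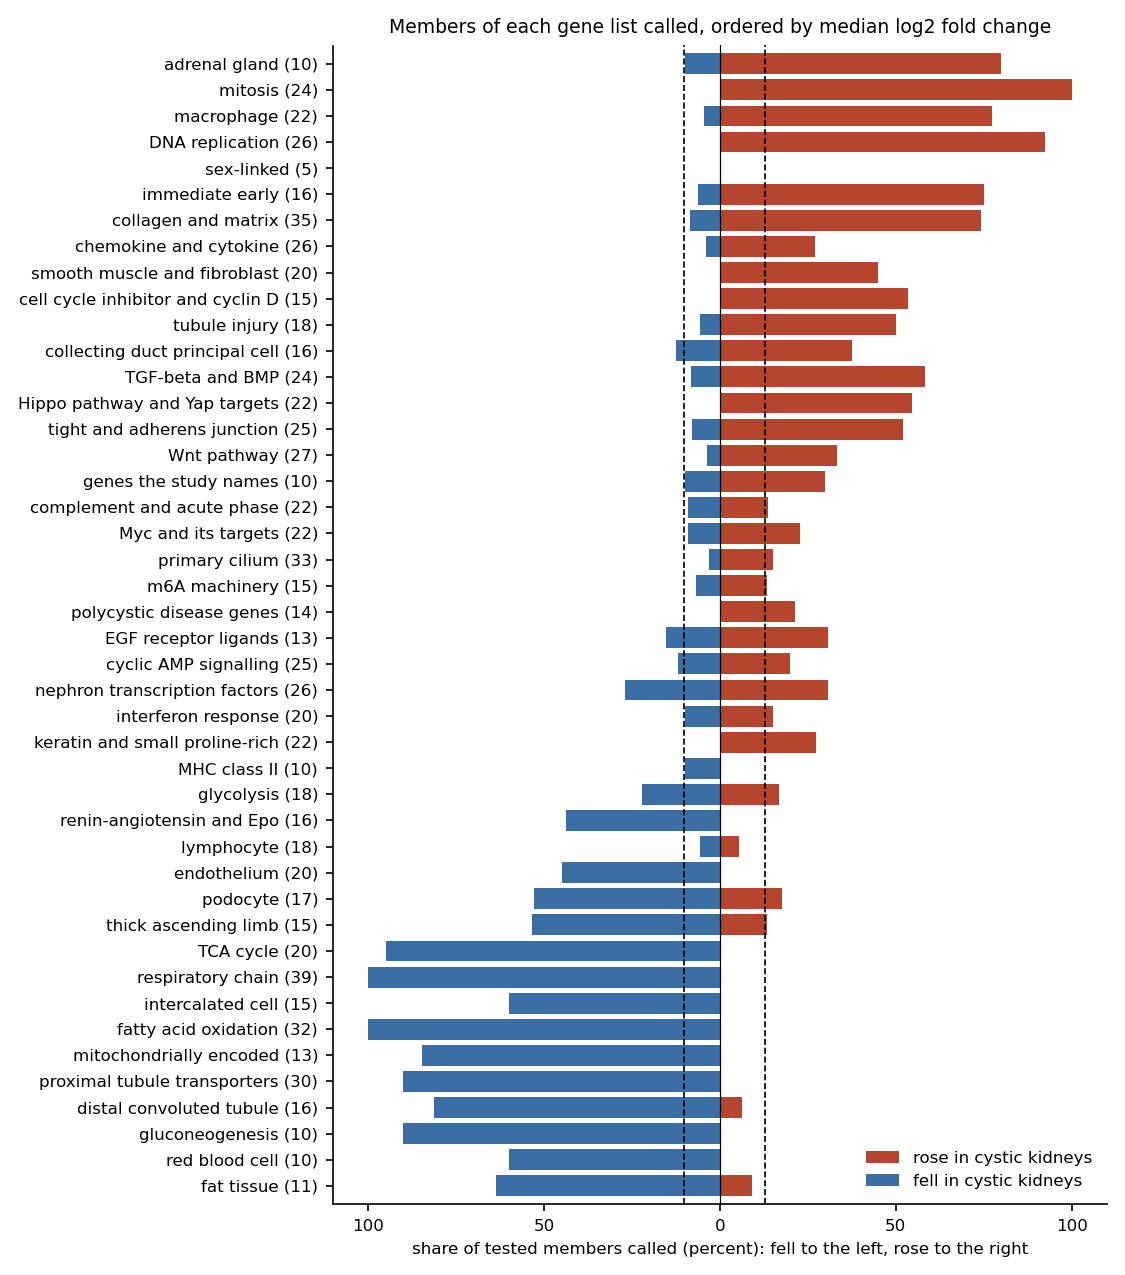
Share of the tested members of each gene list (percent, horizontal axis) that rose (to the right) or fell (to the left) in cystic against noncystic kidneys with the Pkd2 motif deleted, with the number tested beside each name. Dashed lines mark the shares over all genes, 12.8% and 10.2%, and the mitosis list (24 of 24 up) and the respiratory chain and fatty acid oxidation lists (39 of 39 and 32 of 32 down) are the extremes.

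Mitochondrial energy genes fell as a block. All 39 tested nuclear genes of the respiratory chain fell, within a narrow range of -0.74 to -0.32 (median -0.57). Uqcrq, a subunit of complex III, was at 448, 331 and 386 CPM in noncystic and 234, 229 and 233 CPM in cystic kidneys (-0.74, SE 0.12, edgeR adjusted p = 3.02e-04), and the complex IV subunit Cox7b fell by 0.72 on the log2 scale. Of 20 genes of the TCA cycle, 19 fell (median -0.51), and Cs, citrate synthase, was the exception by a small margin (-0.25, SE 0.10, edgeR adjusted p = 0.0696). Cs was called without mouse 28, with DESeq2 size factors and with each other low-count filter or none (log2 fold change -0.33 to -0.25, edgeR adjusted p = 0.0306 to 0.0486), and by DESeq2 (adjusted p = 0.0189). The 32 genes of fatty acid oxidation all fell (median -0.79). Among them was Cyp4a14, a fatty acid hydroxylase and PPARα target, at 407, 616 and 544 CPM in noncystic and 166, 141 and 160.0 CPM in cystic kidneys (-1.75, SE 0.21, edgeR adjusted p = 1.41e-05). The PPARα targets Cyp4a10 (-1.58) and Ehhadh (-1.36) fell as well. Of 13 genes encoded in the mitochondrial genome, 11 fell (median -0.83), and mt-Rnr1 fell from 1552, 1603 and 1723 to 523, 624 and 509.7 CPM. Their summed level was 58000 to 66600 CPM in noncystic and 31500 to 36300 CPM in cystic kidneys. Glycolysis did not move one way: of 18 genes 3 rose, among them Hk1 (0.42, SE 0.10), and 4 fell, among them Pdk1 (-0.54, SE 0.10), a kinase that inhibits pyruvate dehydrogenase. Such calls made up 38.9% of the list, against 31.6% of protein-coding genes. With library totals 3 rose and 1 fell. Ldha, lactate dehydrogenase, was at 699.6, 676 and 762 CPM in noncystic and 702, 728 and 691 CPM in cystic kidneys, and the groups overlapped.

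Proliferation genes rose without exception in mitosis. All 24 genes of mitosis rose, by 0.99 to 1.67 on the log2 scale (median 1.36), and their summed level was 233 to 448 CPM in noncystic against 722 to 878 CPM in cystic kidneys. Top2a, a topoisomerase of dividing cells, was at 48.9, 28.4 and 24.6 CPM in noncystic and 109, 99.1 and 83.8 CPM in cystic kidneys (1.52, SE 0.20, edgeR adjusted p = 4.34e-05), and Mki67 at 69.7, 43.9 and 41.2 CPM in noncystic and 138, 141 and 122 CPM in cystic kidneys (1.37, SE 0.18). Noncystic mouse 22 was the highest of its group for both. Aurkb (1.67), Kif11 (1.55) and Bub1 (1.54), which act on the spindle and its checkpoint, rose as well. Of 26 genes of DNA replication 24 rose (median 1.01), led by Uhrf1 (1.78, SE 0.16) and Cdc6 (1.76, SE 0.19). Among 15 cyclins D, their kinases and cell cycle inhibitors, 8 rose and none fell (median 0.54), with Ccnd2 (0.90, SE 0.16), Cdkn2c (0.86, SE 0.16) and Trp53 (0.75, SE 0.08) in front. Of Myc and 21 further genes around it, mostly its targets in ribosome assembly, 5 rose and 2 fell (median 0.10), or 9 and 1 with library totals. The share called, 31.8%, was near that of protein-coding genes, 31.6%. Cad, which starts pyrimidine synthesis, rose by 0.63 (SE 0.10) and Nop58, a nucleolar protein, by 0.46 (SE 0.10).

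Lists of signalling genes differed in how many of their members rose. In a list of Hippo pathway genes and Yap targets, 12 of 22 rose and none fell (median 0.34). With library totals, where the median of all genes was 0.148, 18 rose and none fell. The Yap target Ankrd1 was at 13.02, 14.4 and 7.32 CPM in noncystic and 20.7, 39.95 and 60.6 CPM in cystic kidneys (1.80, SE 0.30, edgeR adjusted p = 3.19e-04), and mouse 30 was highest. Fjx1 (1.5), Tead2 (1.11) and F3 (1.05) rose too, whereas Ccn2, another Yap target, was at 148, 166 and 126 CPM in noncystic and 102, 155 and 181 CPM in cystic kidneys, with overlap, and was not called. Among 13 ligands and receptors of the EGF family, 4 rose and 2 fell (46.2% against 31.6% of protein-coding genes, median 0.08). Btc was at 11.8, 9.60 and 7.26 CPM in noncystic and 42.5, 59.7 and 49.3 CPM in cystic kidneys (2.40, SE 0.18, edgeR adjusted p = 2.09e-07), and Nrg1 rose by 1.64 (SE 0.19), opposite in direction to Egf and Nrg4 (-1.25, SE 0.32). The receptor genes Egfr, Erbb2, Erbb3 and Erbb4 were not called.

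In the Wnt pathway, 9 of 27 genes rose and 1 fell (37.0% against 31.6% of protein-coding genes), or 14 and 1 with library totals. The ligand genes Wnt7a (2.12, SE 0.38) and Wnt10a (1.90, SE 0.25) and the receptor gene Fzd1 rose, the last from 129, 105 and 128 to 312, 342 and 259.7 CPM (1.33, SE 0.10, edgeR adjusted p = 2.53e-07). Without mouse 30 the rise of Wnt7a was 1.46. Of 24 genes of TGF-beta and BMP signalling, 14 rose and 2 fell (median 0.36). Tgfb2 was at 8.61, 5.67 and 7.43 CPM in noncystic and 25.7, 37.5 and 43.8 CPM in cystic kidneys (2.30, SE 0.20, edgeR adjusted p = 1.03e-06), and Inhba, which encodes activin A, rose by 1.75 (SE 0.26). Of 25 genes of cyclic AMP signalling, 5 rose and 3 fell (32.0% against 31.6% of protein-coding genes), or 9 and 2 with library totals. Those that rose included the CREB targets Nr4a1 and Nr4a2 (1.5, SE 0.33). Nr4a1 was at 14.7, 31.7 and 16.5 CPM in noncystic and 27.02, 41.5 and 94.4 CPM in cystic kidneys, with overlap between the groups (1.37, SE 0.38, edgeR adjusted p = 0.0144). Nr4a1 was not called without mouse 22, 24 or 30 (log2 fold change 0.71 to 1.23, edgeR adjusted p = 0.0667 to 0.148). Nr4a2 rose by 0.92 without mouse 30. Of the list, 3 rose and 2 fell without mouse 30. Adcy3, an adenylyl cyclase of cilia, rose by 0.68 (SE 0.15).

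Immediate early genes, which respond to many stimuli within minutes, rose in 12 of 16 cases, and 1 fell (median 0.76). Egr1 was at 11.6, 26.9 and 17.8 CPM in noncystic and 33.5, 69.3 and 115 CPM in cystic kidneys (1.95, SE 0.33, edgeR adjusted p = 3.36e-04), and Fosb was at 0.599, 0.709 and 0.385 CPM in noncystic and 2.12, 4.40 and 6.20 CPM in cystic kidneys. The cystic mice had the same order for both genes, with mouse 30 highest and mouse 28 lowest. Dusp1 was at 128, 159 and 95.3 CPM in noncystic and 65.6, 107 and 116 CPM in cystic kidneys, with overlap, and was not called (-0.41, SE 0.20). Of 15 genes that write, read or erase m6A or supply its methyl donor, 2 rose by small amounts, Mettl14 (0.25, SE 0.08) and Ythdf2 (0.26, SE 0.09), and Ahcy fell by 0.66 (SE 0.10). Neither Mettl14 nor Ythdf2 was called with Xist as a covariate or with DESeq2 size factors (edgeR adjusted p = 0.0576 to 0.0685). The share of the list called was below that of all genes, 23%, and that of protein-coding genes, 31.6%. Of the list, none rose and 1 fell without any one of the 6 mice. With library totals 6 rose and 1 fell. Primary cilium genes were mostly not called: of 33, 5 rose and 1 fell (18.2% against 23% of all genes and 31.6% of protein-coding genes). With library totals 9 rose and none fell. Kif3b, a motor of transport along the cilium, rose by 0.45 (SE 0.09). Of the list, 3 rose and none fell without mouse 22 or 28, 2 rose and 1 fell without mouse 23, and 2 rose and none fell without mouse 24 or 29.

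Among genes of epithelial junctions, more rose than fell. Of 25 junction genes, 13 rose and 2 fell (median 0.28). Cdh3, or P-cadherin, was at 16.9, 15.7 and 15.02 CPM in noncystic and 53.8, 76.9 and 81.5 CPM in cystic kidneys (2.15, SE 0.13, edgeR adjusted p = 4.64e-08). Cldn6, a claudin typical of embryonic epithelia, was at 13.3, 18.4 and 11.7 CPM in noncystic and 46.1, 51.6 and 61.4 CPM in cystic kidneys (1.88, SE 0.19), and Cldn3 rose by 1.38 (SE 0.11). Among 22 keratin, small proline-rich and uroplakin genes, 6 rose and none fell (median -0.15, or 0.09 without mouse 30). The share called was 27.3%, against 23% of all genes and 31.6% of protein-coding genes. In a fit of the compared groups alone 6 rose and 4 fell. Krt18 was at 92.6, 123 and 117 CPM in noncystic and 226, 328 and 360.2 CPM in cystic kidneys (1.46, SE 0.18, edgeR adjusted p = 1.91e-05), with Krt8 rising by 0.94 (SE 0.14). None of the 5 uroplakin genes, which mark the urothelium of the renal pelvis, was called. Of 18 genes of tubule injury, 9 rose and 1 fell (median 0.53). Lcn2, or NGAL, a kidney injury marker, was at 19.6, 20.7 and 12.05 CPM in noncystic and 68.3, 83.5 and 177 CPM in cystic kidneys (2.65, SE 0.30, edgeR adjusted p = 9.93e-06), and its highest value was that of mouse 30. Gdf15 (2.01), Tnfrsf12a (1.31) and Clu (1.29) rose. Spp1, osteopontin, was at 1444, 1217 and 1326 CPM in noncystic and 1627, 1342 and 2479.9 CPM in cystic kidneys and was not called (0.45, SE 0.18). Spp1 was called without mouse 29 or with library totals (log2 fold change 0.61 to 0.63, edgeR adjusted p = 0.0152 to 0.016). Havcr1, or KIM-1, was at 1.53, 1.42 and 1.38 CPM in noncystic and 1.01, 0.929 and 3.22 CPM in cystic kidneys, with mouse 30 above all others, and was not called.

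Most genes of the extracellular matrix rose, and part of those of contractile cells. Of 35 genes of collagen and matrix, 26 rose and 3 fell (median 0.66). Col12a1 was at 24.7, 28.2 and 23.8 CPM in noncystic and 128, 232 and 216 CPM in cystic kidneys (2.91, SE 0.20, edgeR adjusted p = 9.93e-08), Fn1, fibronectin, rose by 1.31 (SE 0.13) and Timp1, an inhibitor of matrix proteases, by 2.41 (SE 0.39), or by 1.69 without mouse 30. The 3 that fell, Col4a3 (-0.65), Col4a4 (-0.34) and Col4a5 (-0.31), encode the collagen IV chains of the mature glomerular basement membrane, while Col4a1 (0.49) and Col4a2 (0.45) rose. Col4a4 was not called without mouse 24 or 30 or with library totals (log2 fold change -0.30 to -0.19, edgeR adjusted p = 0.0504 to 0.13). Col4a5 was not called without mouse 22, 24, 29 or 30 or with Xist as a covariate or with library totals (log2 fold change -0.36 to -0.16, edgeR adjusted p = 0.0561 to 0.284). Of 20 smooth muscle and fibroblast genes, 9 rose and none fell (median 0.55). Acta2, smooth muscle actin, was at 87.2, 101 and 76.1 CPM in noncystic and 338, 312 and 361 CPM in cystic kidneys (1.94, SE 0.19, edgeR adjusted p = 2.45e-06), and Thy1 was at 10.5, 6.16 and 5.61 CPM in noncystic and 26.9, 27.04 and 44.97 CPM in cystic kidneys (2.15, SE 0.27). Mylk (0.09, SE 0.10) and Pdgfrb (0.09, SE 0.10), which mark smooth muscle and pericytes, were not called. Of 20 endothelial genes, 9 fell and none rose (median -0.27), whereas with library totals 6 fell and none rose (median -0.11). Emcn, endomucin, was at 115, 109.5 and 113 CPM in noncystic and 74.03, 67.6 and 65.7 CPM in cystic kidneys (-0.70, SE 0.10), and the defining markers Pecam1 and Cdh5 overlapped between the groups. In a list of renin-angiotensin and erythropoietin genes, 7 of 16 fell and none rose, whereas with library totals 5 fell and 3 rose. Ren1, renin, was at 129, 179.9 and 113 CPM in noncystic and 80.95, 57.7 and 44.3 CPM in cystic kidneys (-1.21, SE 0.23, edgeR adjusted p = 7.74e-04). Epo was at 0.599, 3.87 and 6.99 CPM in noncystic and 0.913, 0.831 and 0.240 CPM in cystic kidneys, a fall of 2.52 on the log2 scale (SE 0.66, edgeR adjusted p = 0.0101) in which noncystic mouse 22 overlapped the cystic mice. Epo was not called without mouse 24 (log2 fold change -1.75, edgeR adjusted p = 0.0865).

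Immune genes differed by class. Of 22 macrophage genes, 17 rose and 1, Mertk, fell (median 1.11). Without mouse 30, 15 rose and 1 fell (median 0.84). Their summed level was 272 to 336 CPM in noncystic kidneys and 445, 455 and 601 CPM in cystic mice 28, 29 and 30. Trem2 was at 1.36, 0.873 and 1.32 CPM in noncystic and 3.36, 3.42 and 4.57 CPM in cystic kidneys (1.67, SE 0.25, edgeR adjusted p = 1.31e-04), and Cx3cr1, the fractalkine receptor, at 8.06, 5.89 and 5.61 CPM in noncystic and 15.3, 17.9 and 23.04 CPM in cystic kidneys (1.52, SE 0.23). Adgre1, which encodes F4/80, rose by 1.33 (SE 0.16). Ccr2, the receptor of recruited monocytes, was at 3.05, 2.29 and 2.97 CPM in noncystic and 2.5, 2.35 and 3.94 CPM in cystic kidneys and was not called (0.08, SE 0.30, edgeR adjusted p = 0.896). The macrophage growth factors Csf1 (1.56, SE 0.16) and Il34 (1.34, SE 0.16) rose, Csf1 from 17.2, 15.7 and 16.1 to 36.6, 44.4 and 62.96 CPM. Of 26 chemokine and cytokine genes, 7 rose and 1 fell (30.8% against 31.6% of protein-coding genes). Ccl2 was low in all kidneys (0.436, 0.327 and 0.605 CPM in noncystic and 1.01, 1.17 and 1.59 CPM in cystic kidneys) and rose by 1.45 (SE 0.41). Ccl2 was not called without mouse 22, 23 or 30 (log2 fold change 1.25 to 1.41, edgeR adjusted p = 0.0521 to 0.075). Of the list, 4 rose and 1 fell without mouse 23, and 5 rose and none fell without mouse 30.

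Genes of antigen presentation were mostly not called. Of 10 MHC class II genes none rose and 1, H2-DMb1, fell (-0.40, SE 0.11), with a median of -0.15, or 0.01 with library totals. H2-DMb1 was not called without mouse 22 or 30 or with library totals (log2 fold change -0.32 to -0.24, edgeR adjusted p = 0.0897 to 0.112). H2-Ab1 was at 47.7, 47.3 and 46.04 CPM in noncystic and 37.4, 31.6 and 55.6 CPM in cystic kidneys (-0.18, SE 0.15), and Cd74, the invariant chain, at 63.2, 59.5 and 49.8 CPM in noncystic and 54.8, 44.2 and 80.4 CPM in cystic kidneys (0.06, SE 0.18). In both genes mouse 30 was the highest of all 6 mice and mouse 29 the lowest. H2-Ab1 was called without mouse 30 (log2 fold change -0.45, edgeR adjusted p = 0.013). Of 18 lymphocyte genes, 1 rose and 1, Cd8a, fell (-1.36, SE 0.31), and the summed level was 14.3 to 22.4 CPM in noncystic and 14 to 15.4 CPM in cystic kidneys. Of the list, none rose and 1 fell without mouse 23 or 30. Of 20 interferon response genes, 3 rose and 2 fell (5 and 1 with library totals). The share called lay between that of all genes, 23%, and that of protein-coding genes, 31.6%. Rsad2, an antiviral enzyme, was among those that fell (-0.55, SE 0.12). Of the list, 1 rose and 2 fell without mouse 23 or 24, 1 rose and 1 fell without mouse 29, and none rose and 1 fell without mouse 30. Of 22 complement and acute phase genes, 3 rose and 2 fell (22.7% against 31.6% of protein-coding genes), or 5 and 1 with library totals. Of the list, 1 rose and 2 fell without mouse 23, and 1 rose and 1 fell without mouse 24 or 30. C3 was at 29.4, 28.5 and 23.8 CPM in noncystic and 21.1, 14.5 and 57.4 CPM in cystic kidneys and was not called (0.19, SE 0.37).

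The parallel contrast of cystic with noncystic kidneys that carried unedited Pkd2 places these values. It called 7665 genes (31.1%), 4170 up and 3495 down. Of the 5679 genes called with the motif deleted, 4827 (85.0%) were called in the same direction there, which is 63.0% of the genes called with unedited Pkd2, and 2 were called in opposite directions. Across the 13691 genes of average log2CPM 1 or more, the log2 fold changes of both contrasts had a Pearson r of 0.90, a description over genes that are not independent, between sets of libraries that share no mouse. The SD of the fold changes was 0.54 with the motif deleted and 0.67 with unedited Pkd2. Among the 4827 genes, the absolute change was smaller with the motif deleted for 3556 (73.7%).

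**Figure D4:**
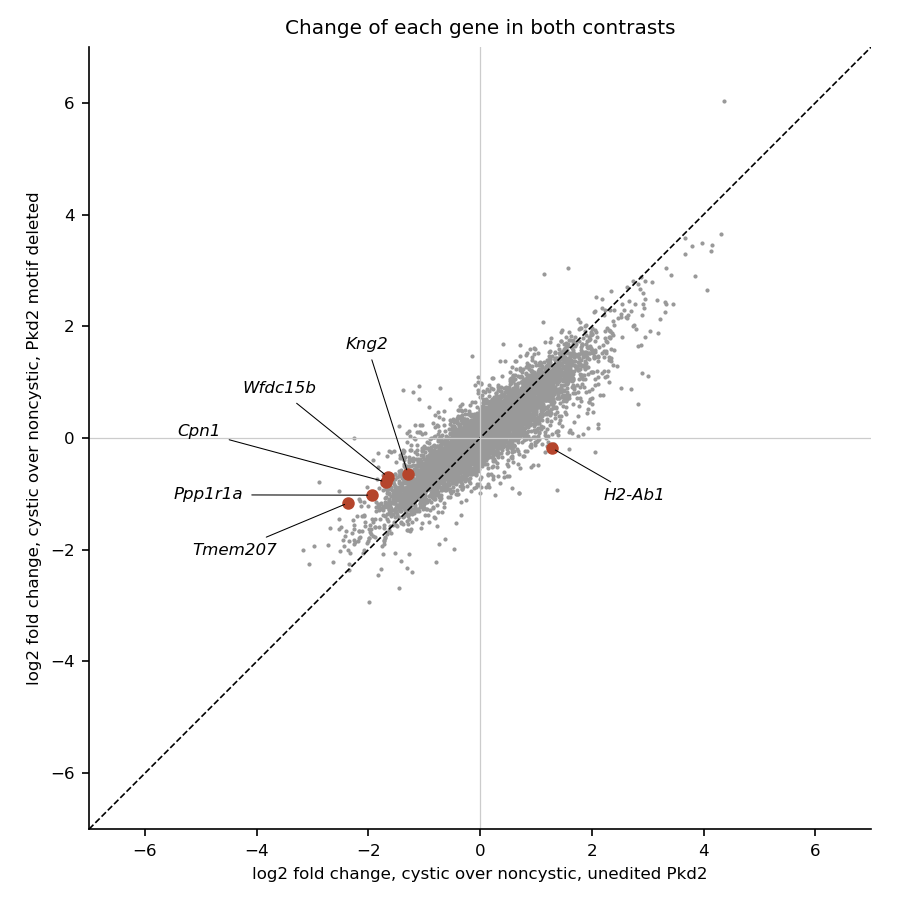
Log2 fold change (cystic over noncystic) of the 13691 genes of average log2CPM 1 or more, with unedited Pkd2 on the horizontal and with the Pkd2 motif deleted on the vertical axis. The dashed line marks equal change, the named points are the 6 genes with the smallest p for the difference, and most genes far from 0 lie on the side of the smaller change with the motif deleted.

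Whether a change differed with the Pkd2 genotype was tested by the interaction. At an adjusted p under 0.05 edgeR called 3 genes (0.0122%), and at an unadjusted p under 0.05 there were 2053 (8.33%). Wfdc15b, a secreted protease inhibitor of the thick ascending limb, went from 174, 137 and 150.3 to 89.4, 91.00 and 105 CPM with the motif deleted (-0.69, SE 0.10) and fell by 1.65 with unedited Pkd2 (178, 179 and 149 CPM in noncystic and 54.1, 54.3 and 52.4 CPM in cystic kidneys), a difference of 0.96 (SE 0.14, edgeR adjusted p = 0.0359). Ppp1r1a, an inhibitor of protein phosphatase 1 in the same segment, was at 376, 300.0 and 356 CPM in noncystic and 152, 183 and 173 CPM in cystic kidneys and fell by 1.02, and with unedited Pkd2 it fell by 1.94, a difference of 0.92 (SE 0.13, edgeR adjusted p = 0.0359). H2-Ab1 was not called with the motif deleted (-0.18) and rose by 1.28 with unedited Pkd2, where it was at 46.00, 43.9 and 51.3 CPM in noncystic and 97.2, 126 and 121 CPM in cystic kidneys (difference -1.46, SE 0.22, edgeR adjusted p = 0.0359). The next 3 by p, Tmem207 (-1.16 against -2.36), Kng2 (-0.64 against -1.29) and Cpn1 (-0.79 against -1.69), had edgeR adjusted p values of 0.0514, 0.0552 and 0.0552. The number called by the interaction depended strongly on the method and on single mice: DESeq2 called 134 genes, and leaving out 1 mouse gave 0 to 61 genes, with 0 without mouse 19, 23, 24, 27 or 29, 1 without mouse 21 or 28, 8 without mouse 20, 10 without mouse 22, and 48, 57 and 61 without mouse 26, 30 or 25.

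Set side by side by list, the medians of the log2 fold change with the motif deleted and with unedited Pkd2 were -0.15 and 1.07 for MHC class II, 1.11 and 1.79 for macrophage, 0.53 and 1.02 for tubule injury, and -0.49 and -1.13 for the thick ascending limb. They were 1.36 and 1.44 for mitosis, 1.01 and 1.0 for DNA replication and 0.66 and 0.79 for collagen and matrix. For the Hippo pathway and Yap targets they were 0.34 and 0.34. They were 0.65 and 1.66 for chemokines and cytokines, -0.10 and 0.69 for interferon response, 0.08 and 1.11 for the EGF family and 0.55 and 0.03 for smooth muscle and fibroblasts. For the proximal tubule they were -0.97 and -1.09, for fatty acid oxidation -0.79 and -0.99 and for the respiratory chain -0.57 and -0.80. An unadjusted interaction p under 0.05 was found for 8.33% of all genes tested. By list it was found for 8 of 10 MHC class II genes, 10 of 15 thick ascending limb genes and 11 of 22 macrophage genes. It was also found for 11 of 20 interferon response genes and 2 of 20 smooth muscle and fibroblast genes. None of the mitosis genes and 1 of the replication genes had such a p. Among the genes of these lists, those past the adjusted threshold were H2-Ab1, Wfdc15b and Ppp1r1a. The lists were chosen with earlier results of these data known, so their counts are not separate support for a difference between genotypes.

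**Figure D5:**
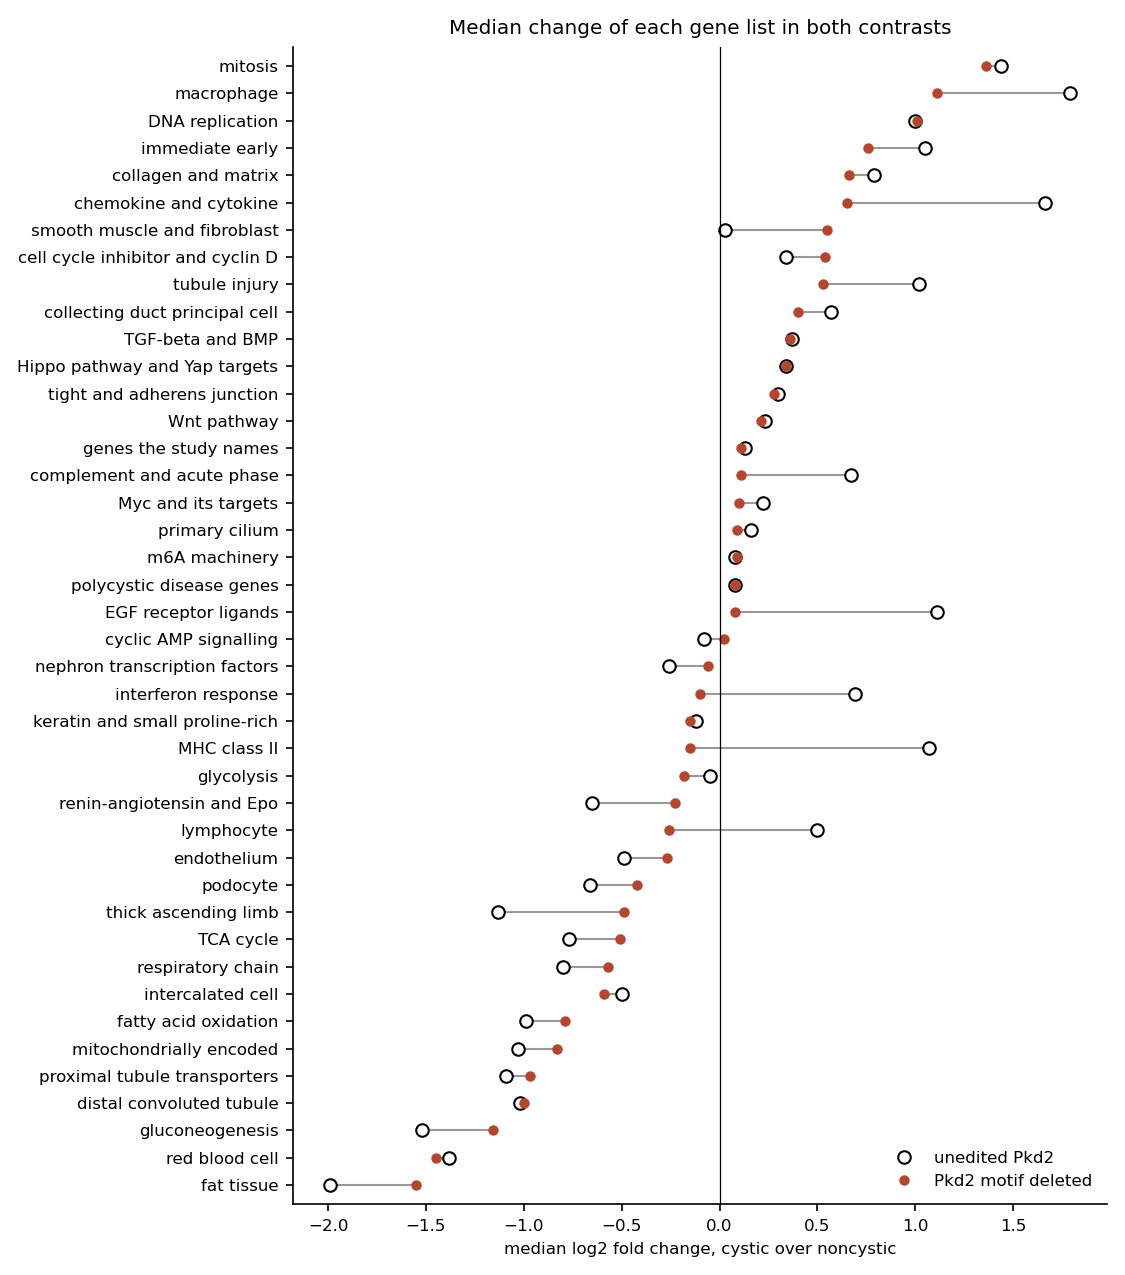
Median log2 fold change (cystic over noncystic) of each gene list, with the Pkd2 motif deleted as filled and with unedited Pkd2 as open points joined by a line (the adrenal and sex-linked lists are left out). The points nearly coincide for DNA replication (1.01 and 1.0), mitosis (1.36 and 1.44) and the Hippo pathway and Yap targets (0.34 and 0.34). They lie farther apart for MHC class II (-0.15 and 1.07) and the thick ascending limb (-0.49 and -1.13).

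Some genes were called with the motif deleted although they were far from a call with unedited Pkd2. There were 125 called genes whose unadjusted p exceeded 0.5 in the other contrast. Led by p, those that rose were Klhl5, Nrep, Adcy1 and Efnb3. Klhl5 was at 63.6, 54.5 and 56.3 CPM in noncystic and 89.4, 80.2 and 77.2 CPM in cystic kidneys (0.50, SE 0.09, edgeR adjusted p = 4.24e-04) against 0.05 (SE 0.09) with unedited Pkd2. Nrep, a small protein of regenerating tissue, was at 395, 304 and 329 CPM in noncystic and 660.2, 499.6 and 499.6 CPM in cystic kidneys (0.69, SE 0.14) against 0.05 (SE 0.14). Adcy1, a calcium-activated adenylyl cyclase, rose by 0.68 (SE 0.14) against 0.07. The genes that fell were led by Josd2 (-0.45 against -0.05, or -0.29 with library totals), Gm31600, Creld1 (-0.34 against 0.02) and the inhibitory Fc receptor gene Fcgr2b (-0.46 against -0.04). The interaction passed its adjusted threshold for none of these 8 genes, whose unadjusted interaction p ran from 0.00195 to 0.0217 and whose smallest edgeR adjusted p was 0.27, so these changes are not shown to differ between genotypes. Creld1 was not called with library totals (log2 fold change -0.19, edgeR adjusted p = 0.134). Fcgr2b was not called with library totals (log2 fold change -0.31, edgeR adjusted p = 0.0623).

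The share of genes called increased with the level of expression, from 1.97% of genes with an average log2CPM under -1 to 52.7% of those at 7 and over. In that most abundant class 34.8% of genes fell and 17.9% rose, while at 1 to 4 only 11.0% fell and 21.5% rose. Of 16920 protein-coding genes 31.6% were called, of 1535 lincRNA genes 7.36% and of 2246 pseudogenes 2.67%.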

How the data were processed

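Whole-kidney RNA from 12 mice was sequenced, and per the labels the authors trimmed reads with Trim Galore 0.6.3, aligned them to GRCm38 with STAR 2.5.3a and deposited raw counts per gene. The strand setting is not given in the sources used here. The 6 libraries compared held 18852652 to 19755910 counts, and the intervals of the fits cover the spread between mice. Genes were tested with edgeR 4.0.16 (quasi-likelihood test, TMM factors, R 4.3.3), in 1 fit of the 4 group means to all 12 mice, with 8 residual degrees of freedom, for 24642 genes of mean log2CPM -3 or more (prior count 2), in place of the study's limma-trend. The 343 genes without a name held 0.0225% of the reads. Groups came from the labels, 3 mice each, and each mouse is a separate animal. Libraries of 1 group differed by more than sampling noise. On counts simulated for this comparison over 24642 genes, 200 genes of average log2CPM 1 or more were changed, up or down at random. There edgeR called 88.8% of the genes changed by 2-fold and 98% of those changed by 4-fold, and 5.16% of its calls were false. With DESeq2 8.76% of the calls were false. Far fewer genes were changed than were called in the data, and no difference in composition between groups was simulated. These shares therefore need not hold for this contrast or for fainter genes. Alternatives used limma 3.58.1 and DESeq2 1.42.0, other scalings and filters, Xist as a covariate, the compared groups alone, and each mouse left out.

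The comparison, its genes and its lists were chosen with earlier results of these data known. Genes were named as those the study names, the 8 largest rises and falls of protein-coding genes without overlap (average log2CPM 1 or more), the 5 of each direction with the smallest p, up to 4 called and 2 uncalled members of each list, the 6 with the smallest interaction p, and the 4 of each direction with p over 0.5 in the other contrast. Cyp11b1, Adipoq, Adgre1, Pecam1 and Cdh5 were markers. Mir17hg, Mcm7, Mki67, Hnf4a, Pdgfrb, Col4a1 to Col4a5, Havcr1, Egfr, Erbb4, Kirrel, Npnt, Stk39 and Mertk were chosen after their values were seen. Exons of 32 of the 147 genes with a fold change in the text overlap a gene on the other strand and those of 8 a gene on the same strand, so their reads may be shared (for example Pkd1 with Tsc2, Egf with 6330410L21Rik, and Epo with Gnb2).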

Additional observations from a re-analysis of the deposited data

Results flagged for a closer look

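For 3 genes the change from noncystic to cystic kidneys differed between the Pkd2 genotypes by the test of the difference itself. The difference, motif deleted minus unedited, was 0.96 on the log2 scale for Wfdc15b (SE 0.14), 0.92 for Ppp1r1a (SE 0.13) and -1.46 for H2-Ab1 (SE 0.22), each with an edgeR adjusted p of 0.0359. With edgeR's filterByExpr in place of the cutoff, none of the 3 was called (edgeR adjusted p = 0.0567), and without mouse 19, 23, 24, 27 or 29 none was called either. H2-Ab1 was also not called without mouse 20, 21, 22 or 28 (edgeR adjusted p = 0.0533 to 0.116), Wfdc15b without mouse 28 (edgeR adjusted p = 0.0658), and Ppp1r1a without mouse 21 (edgeR adjusted p = 0.1). The size of each difference kept its sign in every one of these fits, at 0.89 to 1.0 for Wfdc15b, 0.83 to 0.94 for Ppp1r1a and -1.52 to -1.30 for H2-Ab1.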

How the results depend on the processing

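The count of called genes with the motif deleted was 4423 to 7134 under the alternatives, the lowest without mouse 30 and the highest with limma-trend on library totals (6991 with library totals alone), and 76.2 to 98.1% of the 5679 genes were called there in the same direction. With unedited Pkd2 it was 6480 to 8829. The interaction called 134 genes with DESeq2, 15 with Xist as a covariate, 12 with at least 10 counts in every mouse, 0 with filterByExpr (1688 at an unadjusted edgeR p under 0.05), 8 with library totals, 9 with limma-trend on library totals, 566 with no cutoff and 0 to 61 without 1 mouse, and the cause was not tested. Of 147 genes with a fold change in the text 130 were called, and 10 of these lost the call without 1 mouse and 10 under another alternative. With no cutoff, Dusp1, Slc7a8, Spp1 and Umod were called. Directions reversed only for uncalled genes, each in the range over fits without 1 mouse: C3 (-0.62 without mouse 30 to 0.53 without mouse 29), Ccr2 (-0.19 without mouse 30 to 0.22 without mouse 29, and -0.056 without mouse 23), Cd74 (-0.22 without mouse 30 to 0.23 without mouse 29, and -0.036 without mouse 24), Mettl3 (-0.062 without mouse 22 to 0.17 without mouse 23, and -0.0025 without mouse 28) and Pkd1 (-0.013 without mouse 28 to 0.13 without mouse 23, and -0.0041 without mouse 22). The keratin list had 7 called up and 9 down with no cutoff. No paired analysis was possible because the labels' mouse numbers are shared by no groups.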
